A study of Homo sapiens with 9 samples.

Results

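The 10 genes described here are the transcriptional co-activators YAP1 and WWTR1 (the gene of TAZ), their DNA-binding partner TEAD1, and 7 genes known as targets or regulators of that pair: CCN1, CCN2, ANKRD1, AMOTL2, AJUBA, LATS2 and AXL. They were taken by symbol from 78894 Ensembl identifiers per library, and all 10 were among the 17100 genes tested, those with at least 1 TPM (a share of the library corrected for transcript length) in at least 2 distinct libraries. RNA sequencing had been done on CAL27, an established line of human tongue squamous cell carcinoma, in a study of an enhancer in head and neck carcinoma. Control cells gave 3 samples, and the CRISPR knockout groups A2ko, A8ko and C9ko gave 2 samples each. All were grown in DMEM with 10% FBS. The labels name neither the sequence that was edited nor whether a knockout is 1 clone or a pool.

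The pair of A2ko files held the same value for every identifier, as did the pair of A8ko files, and each pair was counted as 1 library. In both pairs the file headers name the library of the second replicate. This left 7 distinct libraries: 3 of Control, 1 of A2ko, 1 of A8ko and 2 of C9ko. Values of A2ko and A8ko therefore have no replicates and no test. Nothing in the labels says that the samples came from separate cultures, so p-values measure the spread between these libraries only. The depth of the libraries is unknown, since TPM keeps none. In the A2ko library 16716 genes reached 1 TPM, against 15556 (A8ko) to 15954 (C9ko replicate 2) in the others. Mitochondrial transcripts took 17.9% to 26.9% of the TPM per library. The median tested gene stood 0.12 (A2ko), 0.09 (A8ko) and 0.11 (C9ko) above the Control mean on the log2 scale. Scaling libraries by the median of ratios brought them to -0.03, 0.02 and 0.00, so differences are also given on that scale where it matters.

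YAP and TAZ are the end points of the Hippo pathway. When the kinases LATS1 and LATS2 phosphorylate them, they stay in the cytoplasm or are degraded. When they are not phosphorylated, they enter the nucleus and switch on genes through the TEAD factors. In squamous epithelia they are known for driving the growth of basal cells and of carcinomas. Much of this control acts on the proteins, which RNA sequencing does not measure.

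TEAD factors bind a short element with the core GGAATG. Promoter sequence is shown for the target with the largest fall from Control in A2ko (CCN2). It is also shown for the one with the largest rise in C9ko (ANKRD1) and the one highest over Control in A8ko (AXL). Each line gives the 250 bases before a RefSeq transcription start on GRCh38.p14, 5′ to 3′ on the strand of the gene, with the core, read on either strand (GGAATG or CATTCC), in capitals.
CCN2, chr6:131951373-131951622, minus strand: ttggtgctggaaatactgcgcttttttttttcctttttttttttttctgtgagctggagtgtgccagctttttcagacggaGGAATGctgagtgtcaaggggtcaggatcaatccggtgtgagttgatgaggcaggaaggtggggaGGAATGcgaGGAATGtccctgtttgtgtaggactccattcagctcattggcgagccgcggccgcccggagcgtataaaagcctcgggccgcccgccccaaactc
ANKRD1, chr10:90921088-90921337, minus strand: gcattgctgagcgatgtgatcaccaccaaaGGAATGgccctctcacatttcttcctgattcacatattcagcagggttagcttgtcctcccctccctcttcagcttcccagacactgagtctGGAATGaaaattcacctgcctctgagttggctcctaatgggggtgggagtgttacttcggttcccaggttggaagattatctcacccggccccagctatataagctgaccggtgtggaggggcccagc
AXL, chr19:41218973-41219222, plus strand: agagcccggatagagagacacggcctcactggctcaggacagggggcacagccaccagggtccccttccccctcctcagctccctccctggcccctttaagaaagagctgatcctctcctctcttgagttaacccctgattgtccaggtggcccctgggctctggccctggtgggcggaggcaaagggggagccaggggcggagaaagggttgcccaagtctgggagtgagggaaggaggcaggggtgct
The core stood 3 times before the CCN2 start, beginning 169, 104 and 95 bases upstream of it, and 2 times before the ANKRD1 start, at 220 and 128 bases. This stretch of AXL held none, and a second RefSeq start of AXL had 1 match, 212 bases upstream. The RefSeq table of windows from 250 bases before to 50 bases after a start held 12 windows for 8 of the 10 genes, all but CCN1 and TEAD1. The core was in 7 of the 12 windows, which is 58.3%, against 14% of all 35116 windows of that length. The windows of YAP1, LATS2, AMOTL2 and AJUBA had 1 match each at one start, and those of WWTR1 had none. The AP-1 element TGANTCA, searched on both strands, was in the ANKRD1 window alone among these genes, and in 7.71% of all windows. A match is a run of letters and not a measured binding site.

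In Control cells CCN1, a secreted matrix protein, had the highest level of the 10 genes, at 286.5 ± 9.76 TPM (SD, n = 3). CCN2, also called connective tissue growth factor, followed at 155.9 ± 7.06, and the LIM-domain adaptor AJUBA at 95.98 ± 4.84. YAP1 at 66.8 ± 1.36 TPM and AMOTL2 at 62.1 ± 8.58 overlapped in their Control libraries. Every other pair of neighbours in the order was apart there. Below them came WWTR1 at 32.6 ± 1.51, AXL at 19.8 ± 1.17, TEAD1 at 16.0 ± 0.610 and LATS2 at 8.17 ± 0.450 TPM. ANKRD1, a muscle ankyrin repeat protein much used as a readout of YAP, was the lowest, at 0.514 ± 0.186 TPM. The order did not hold in every knockout. CCN2 was below AJUBA in A2ko, and AXL passed YAP1 in A8ko and WWTR1 in C9ko. AMOTL2 was above YAP1 in A2ko and C9ko.

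**Figure D1:**
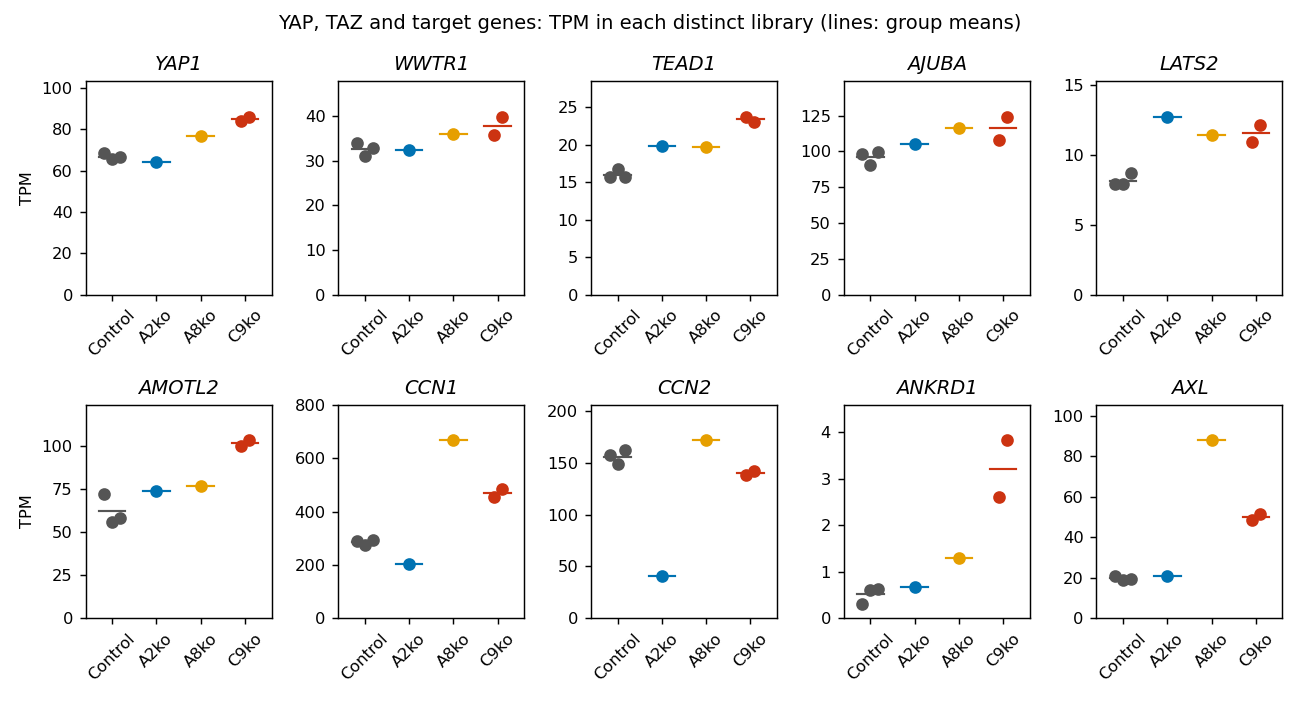
Each panel plots the TPM of 1 gene (vertical axis from 0) in the 7 distinct libraries, grouped as Control, A2ko, A8ko and C9ko on the horizontal axis, with points for libraries and lines for group means. CCN2 is low in A2ko alone at 40.4 TPM, whereas AXL and CCN1 are high in A8ko and C9ko.

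The co-activators themselves differed little between groups. YAP1 (ENSG00000137693, chromosome 11, 102110461 to 102233423, protein coding) was at 68.3, 65.7 and 66.4 TPM in the Control libraries, 64.1 for A2ko, 76.8 for A8ko, and 84.2 and 86.1 for C9ko. A2ko lay just below the Control range and the other knockout libraries above it. In C9ko YAP1 rose by 0.35 on the log2 scale (SE 0.06, limma adjusted p 0.00508), or 0.22 after scaling by the median of ratios. WWTR1 (ENSG00000018408, chromosome 3, 149517235 to 149736714, protein coding) was at 34.0, 31.0 and 32.9 TPM in Control, 32.4 for A2ko, 36.1 for A8ko, and 35.9 and 39.9 for C9ko. Its C9ko difference of 0.21 (SE 0.08) did not pass, with a limma adjusted p of 0.0838. The sum of YAP1 and WWTR1 was 99.5 ± 2.82 TPM in Control (SD, n = 3), 96.4 for A2ko, 112.9 for A8ko, and 120.0 and 126.0 for C9ko. YAP1 RNA was between 1.98 and 2.35 times that of WWTR1 in every knockout library, against 2.05 ± 0.0593 in Control (SD, n = 3).

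TEAD1 (ENSG00000187079, chromosome 11, 12674591 to 12944483, protein coding), which tethers YAP and TAZ to DNA, was higher in every knockout library. Its levels were 15.7, 16.7 and 15.6 TPM in Control, 19.8 for A2ko, 19.7 for A8ko, and 23.8 and 23.1 for C9ko. The rise in C9ko was 0.52 on the log2 scale (SE 0.07, limma adjusted p 0.00191), and 0.41 after scaling. TEAD1 made up 19.4% ± 1.38 of the summed TEAD RNA in Control (SD, n = 3), and the knockout libraries ranged from 19.4% to 22.7%.

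The regulators come next. LATS2 (ENSG00000150457, chromosome 13, 20973032 to 21061547, protein coding), the kinase that inhibits YAP and is itself a YAP target, was at 7.91, 7.90 and 8.69 TPM in Control, 12.7 for A2ko, 11.4 for A8ko, and 10.9 and 12.1 for C9ko. All 4 knockout libraries lay above all 3 Control libraries. LATS2 rose in C9ko by 0.45 on the log2 scale (SE 0.09, limma adjusted p 0.00902), and without C9ko replicate 2 the difference was 0.38 with an adjusted p of 0.0596. LATS1, its partner kinase, stayed at 13.9 to 16.5 TPM over all libraries. The ratio of LATS2 to LATS1 was 0.550 ± 0.0385 in Control (SD, n = 3), and the knockout libraries ranged from 0.734 to 0.827.

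AMOTL2 (ENSG00000114019, chromosome 3, 134355874 to 134375479, protein coding), a junction protein that holds YAP in the cytoplasm, was at 71.9, 56.1 and 58.3 TPM in Control, 74.0 for A2ko, 76.6 for A8ko, and 100.2 and 103.3 for C9ko. It rose in C9ko by 0.71 on the log2 scale (SE 0.11, limma adjusted p 0.00367), whereas the A2ko and A8ko values stood only just above Control 1. AJUBA (ENSG00000129474, chromosome 14, 22971174 to 22982642, protein coding), which binds LATS kinases at junctions, was at 98.2, 90.4 and 99.3 TPM in Control, 104.9 for A2ko, 116.3 for A8ko, and 108.1 and 124.3 for C9ko. Its C9ko rise of 0.27 (SE 0.08) passed narrowly, with a limma adjusted p of 0.0483. The call was lost in 9 of 14 alternative analyses, among them those without any 1 of the Control libraries (adjusted p 0.0841, 0.117 and 0.0847) or without C9ko replicate 2 (0.252), and the difference was 0.15 after scaling (0.110).

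Among the output genes, CCN1 and AXL moved strongly in A8ko and C9ko. CCN1 (ENSG00000142871, chromosome 1, 85580761 to 85583962, protein coding) was at 290.1, 275.4 and 293.9 TPM in Control, 205.2 for A2ko, 667.5 for A8ko, and 454.7 and 483.7 for C9ko. A2ko was below all Control libraries and the other knockouts were above them. The A8ko value was 2.33 times the Control mean, a difference of 1.22 log2 units. In C9ko CCN1 rose by 0.71 (SE 0.07, limma adjusted p 0.000425).

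AXL (ENSG00000167601, chromosome 19, 41219203 to 41261766, protein coding) encodes a receptor tyrosine kinase linked to invasion and drug resistance. It was at 21.1, 18.9 and 19.4 TPM in Control, 20.7 for A2ko, 87.9 for A8ko, and 48.4 and 51.4 for C9ko. A2ko lay within the Control range as deposited. After scaling by the median of ratios it lay just below that range, at 19.2 against 19.9 to 21.7. A8ko was 4.44 times the Control mean, a difference of 2.10 log2 units. AXL rose in C9ko by 1.29 (SE 0.07, limma adjusted p 6.79e-05), the smallest adjusted p among the 10 genes. The RNA of its ligand GAS6 rose in C9ko as well, by 0.99 (SE 0.07, limma adjusted p 0.000162), from 139.3, 138.9 and 152.2 TPM in Control to 274.5 and 298.9, and was at 251.4 in A8ko and 134.3 in A2ko. The related receptor TYRO3 was at 4.37 to 6.76 TPM in all libraries, and its C9ko difference of 0.10 did not pass (limma adjusted p 0.518). With MERTK, the third receptor of the family, at 0.283 to 1.70 TPM and not called, 2 of these 4 receptor and ligand genes rose in C9ko, where 22% of all tested genes did.

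CCN2 (ENSG00000118523, chromosome 6, 131948176 to 131951373, protein coding) did not follow CCN1. It was at 157.1, 148.3 and 162.3 TPM in Control, 40.4 for A2ko, 171.5 for A8ko, and 138.5 and 141.7 for C9ko. The A2ko library, at 0.259 times the Control mean, was 1.92 log2 units lower, and no other library of the 7 was under 138.5 TPM. The C9ko difference of -0.15 (SE 0.06) did not pass on the deposited scale, with a limma adjusted p of 0.121. With libraries scaled by the median of ratios it passed as a fall, at -0.27 with a limma adjusted p of 0.00700, and with mitochondrial genes left out of the TPM it was -0.25 (0.00939).

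A ratio within a library does not depend on scaling, and the ratio of CCN1 to CCN2 was examined after their values were seen. It was 1.84 ± 0.0243 in Control (SD, n = 3), 5.08 for A2ko, 3.89 for A8ko, and 3.28 and 3.41 for C9ko. Every knockout library was above the Control libraries. CCN1 and CCN2 were each among the 8.65% of all tested genes with knockouts on opposite sides of every Control library, on both scales and at least 1 log2 unit apart. In A2ko the ratio differed mostly through lower CCN2, and in A8ko and C9ko mostly through higher CCN1.

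**Figure D2:**
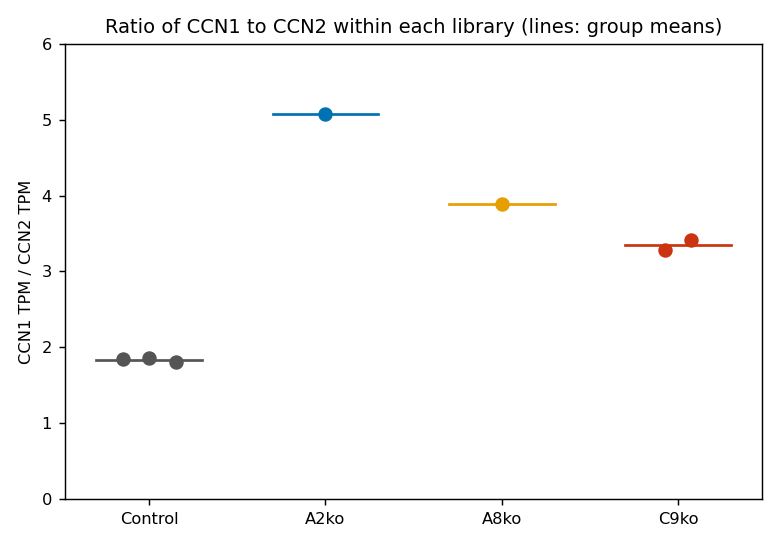
The vertical axis, from 0, is the TPM of CCN1 divided by that of CCN2, with 1 point per distinct library and a line for each group mean. Control libraries lie together at 1.84, and the 4 knockout libraries lie between 3.28 and 5.08.

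ANKRD1 (ENSG00000148677, chromosome 10, 90912096 to 90921276, protein coding) was listed at 0.300, 0.618 and 0.625 TPM in Control, 0.674 for A2ko, 1.29 for A8ko, and 2.60 and 3.82 for C9ko. Only its A8ko and C9ko libraries reached 1 TPM, so it passed the filter through groups where it was high. It rose in C9ko by 1.47 on the log2 scale (SE 0.19, limma adjusted p 0.00195). This was the largest rise of the 10 genes, from the lowest level. The log2(TPM + 1) scale understates changes at this level, and with a pseudocount of 0.1 the difference was 2.46. As a ratio of means, C9ko was 6.24 times Control. With no filter on low values, the C9ko difference of 1.47 had a limma adjusted p of 0.0331.

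**Figure D3:**
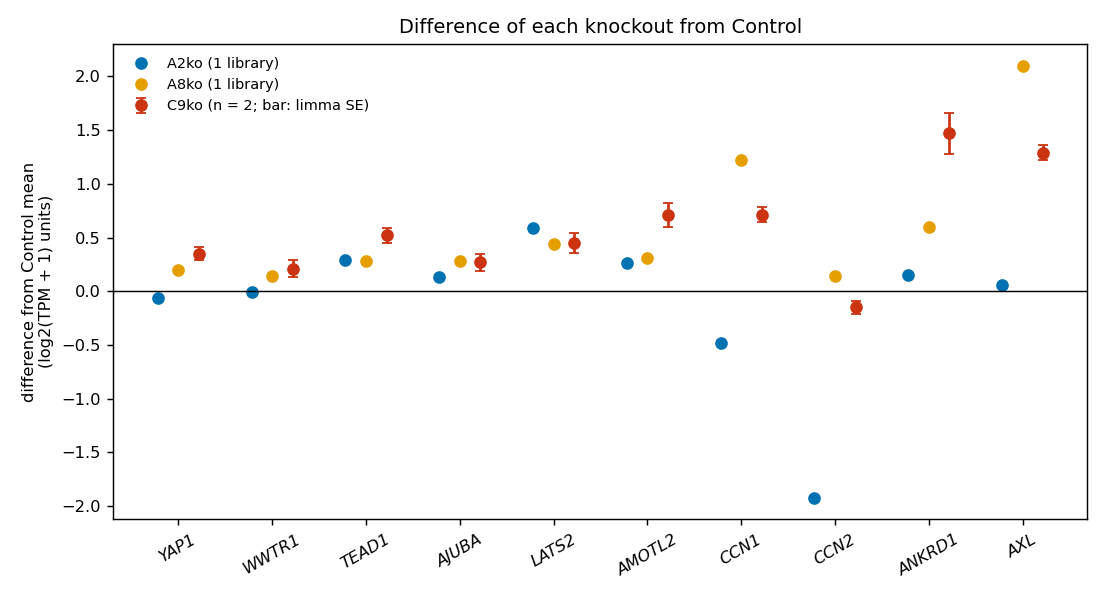
The vertical axis is the difference from the Control mean in log2(TPM + 1) units for each of the 10 genes, with points for A2ko and A8ko (1 library each) and C9ko (n = 2, bars are the limma SE). The C9ko points run from -0.15 for CCN2 to 1.47 for ANKRD1, and CCN2 in A2ko stands lowest at -1.92.

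Counted over the 10 genes, 8 rose in C9ko and 0 fell, with WWTR1 and CCN2 not called, at a limma adjusted p under 0.05. ANKRD1, one of the 8, was tested only through its A8ko and C9ko libraries, which applies to every count that holds it. Over all tested genes 22% were called higher and 7.42% lower. After scaling by the median of ratios 8 of the 10 were again called, but AJUBA was lost and CCN2 was called lower. On that scale 15.8% of all genes were called higher and 12.3% lower. On the deposited scale ANKRD1 and AXL were called and at least 1 log2 unit higher, with 3.25% of all genes called so and 1.72% at least 1 unit lower. The median C9ko difference of the 10 was 0.48, against 0.11 over all genes. In A2ko, CCN2 was the only one of the 10 both outside the Control range and at least 1 log2 unit away, where 5.07% of all genes were counted. In A8ko those were AXL and CCN1, where 4.73% of all genes were counted.

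All 10 genes lay above the Control range in A8ko, as did 46.9% of tested genes, with 26.4% below, and they still did after scaling (37.8% of genes, with 34.3% below). In C9ko 9 lay above and CCN2 below on both scales, against 41% and 16.4% of tested genes as deposited, and 29.2% and 26.7% after scaling. A2ko had 5 of the 10 above and 3 below, against 50.4% and 26.3% of all genes, and after scaling 2 above and 5 below, against 35.4% and 41%. All 4 knockout libraries were above all Control libraries for 5 genes (TEAD1, LATS2, AMOTL2, AJUBA and ANKRD1), as for 17% of tested genes, and below for none of the 10, against 4.61%. After scaling this held for TEAD1 and LATS2 only, and for 8.5% of tested genes.

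When the 3 knockout group means were set against the 3 Control libraries, limma called 0 of the 10 genes at an adjusted p under 0.05, as against 1.03% of all genes. At an unadjusted p under 0.05 there were 5 of the 10 (TEAD1, LATS2, AMOTL2, AJUBA and AXL), against 16% of all genes. LATS2 had the smallest adjusted p of the 10, 0.101, with a mean difference of 0.49 (SE 0.11). AXL, with a mean difference of 1.15 (SE 0.46), had an adjusted p of 0.290. Without A2ko, the limma adjusted p was 0.00728 for AXL, 0.0127 for CCN1 and 0.0349 for LATS2. Calls over all 17100 tested genes then rose as well, from 176 to 1993. Without A8ko the limma adjusted p was 0.376, 0.883 and 0.134 for AXL, CCN1 and LATS2, with 126 of all genes called. Without C9ko it was 0.427, 0.75 and 0.163, with 67 called.

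Other nuclear partners of the pathway were read from a list of 10 genes that also holds YAP1, WWTR1 and TEAD1. In C9ko 8 of the 10 rose and 0 fell, where 22% of all tested genes were called higher and 7.42% lower. After scaling 7 of the 10 rose, where 15.8% of all genes were called higher and 12.3% lower. TEAD2 rose to 19.3 and 22.4 TPM from 14.0, 13.3 and 13.8 in Control, and was at 25.8 in A2ko and 11.3 in A8ko. The largest rises were in VGLL genes, whose products compete with YAP for TEAD. VGLL2 rose by 2.17 on the log2 scale (SE 0.09, limma adjusted p 1.93e-05), from 5.31 to 6.30 TPM in Control to 29.7 and 29.6, and was at 19.8 in A8ko and 5.47 in A2ko. VGLL1 rose by 1.42 (SE 0.15, limma adjusted p 0.000670), from 2.01, 1.45 and 1.45 TPM to 6.33 and 5.68, but was at 0.167 TPM in A8ko. VGLL3 rose by 0.85 (SE 0.11, limma adjusted p 0.00171). In A8ko VGLL2 was thus among the genes counted higher and VGLL1 among those counted lower.

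The cytoplasmic arm, 22 kinases, adaptors and scaffolds of which LATS2, AMOTL2 and AJUBA are also members of the 10, had 21 genes tested. In C9ko 14 rose, 0 fell and 7 were not called, beside 22% and 7.42% of all tested genes. After scaling 10 rose and 1 fell, beside 15.8% and 12.3%. The largest rises were in WWC1 (KIBRA, an activator of LATS kinases), at 0.92 on the log2 scale (SE 0.10, limma adjusted p 0.000841), MAP4K4 (a kinase acting on LATS), at 0.88 (SE 0.10, limma adjusted p 0.000916), and AMOTL2. WWC1 was at 12.0, 15.1 and 14.0 TPM in Control, 15.7 for A2ko, 20.9 for A8ko, and 27.2 and 26.4 for C9ko. No gene of this list was counted at 1 log2 unit in A2ko or A8ko, where 5.07% and 4.73% of all genes were counted. AMOT could not reach that cut by a fall, because its Control mean was only 0.923 TPM. It was at -0.94 in A2ko, the largest fall that log2(TPM + 1) allows from that level, and at -0.82 in A8ko. It was at 0.953, 0.804 and 1.01 TPM in Control, 0 for A2ko and 0.0891 for A8ko. The median difference of the list was 0.19 (A2ko), 0.28 (A8ko) and 0.32 (C9ko).

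A list of 22 widely used YAP and TAZ target genes, written from general knowledge and holding 6 of the 10 members, showed how far the outputs moved together. In C9ko 15 rose, 3 fell and 4 were not called, against 22% and 7.42% of all tested genes. The 15 include RBMS3, which reached 1 TPM in the C9ko libraries only (1.19 and 1.10). They also include ANKRD1, which did so in A8ko and C9ko only. RBMS3 and ANKRD1 were thus tested through groups where they were high. After scaling 15 rose and 4 fell, against 15.8% and 12.3%. TGFB2, a secreted growth factor, rose by 2.30 on the log2 scale (SE 0.09, limma adjusted p 1.84e-05), from 6.74, 5.63 and 6.04 TPM to 33.1 and 35.3, and was at 15.3 in A2ko and 14.5 in A8ko. ANKRD1 and AXL had the next largest rises. The falls were in IGFBP3, a binding protein of insulin-like growth factors, at -0.58 (SE 0.08, limma adjusted p 0.00196), and, close to the threshold, in GADD45A (-0.28, 0.0498) and MYOF (-0.23, 0.0433).

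In A8ko 7 of these 22 genes were counted higher and 2 lower, against 2.05% and 2.68% of all genes. AXL and NT5E, the ecto-enzyme CD73, stood highest, with NT5E at 54.3 TPM against 19.3, 16.9 and 18.8 in Control. IGFBP3 was at 492.2 TPM against 1283, 1144 and 1270 in Control, and CCDC80 at 1.15 TPM against 3.81, 3.38 and 2.78. In A2ko 1 was counted higher (TGFB2) and 3 lower, against 3.54% and 1.53% of all genes. Those 3 were CCN2, IGFBP3 at 456.2 TPM, and GADD45A, a stress response gene, at 25.5 TPM against 67.4, 59.2 and 67.6 in Control. The 22 genes had a median difference of 0.06 (A2ko), 0.42 (A8ko) and 0.68 (C9ko). The 3 comparisons share their Control libraries, so they are set side by side only.

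**Figure D4:**
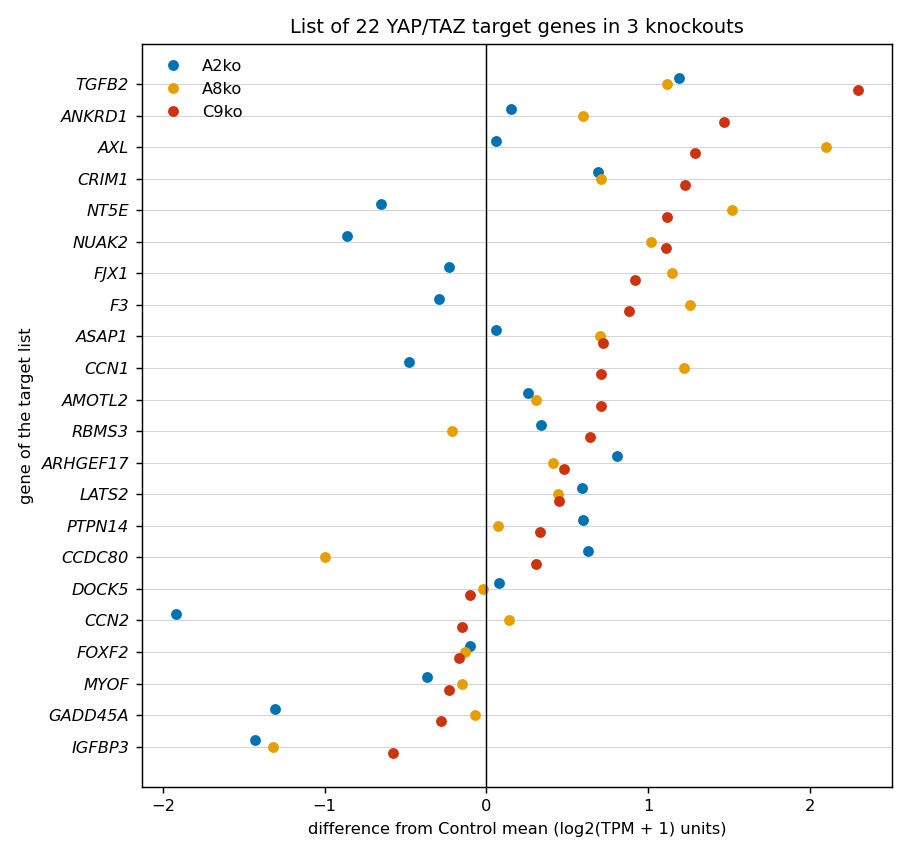
The horizontal axis is the difference from the Control mean in log2(TPM + 1) units for the 22 genes of the target list (vertical axis, ordered by C9ko), with a colour for each knockout. C9ko runs from -0.58 for IGFBP3 to 2.30 for TGFB2, and the A2ko point of CCN2 is at -1.92.

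CCN1 and CCN2 also respond to serum and handling, so a list of 12 early response genes was read beside them. In C9ko 4 of the 12 rose and 6 fell on the deposited scale, beside 22% and 7.42% of all tested genes. Calls of this list were not counted after scaling. FOS fell by 2.44 on the log2 scale (SE 0.06, limma adjusted p 5.70e-06), from 141.0, 148.8 and 145.8 TPM to 25.6 and 26.3, and was at 59.1 in A8ko and 244.2 in A2ko. FOSB fell by 1.71 (SE 0.08, limma adjusted p 3.49e-05) and EGR1 by 1.47 (SE 0.06, limma adjusted p 1.93e-05). JUN rose by 1.13 (SE 0.09, limma adjusted p 0.000229), KLF6 by 0.60 (SE 0.07, limma adjusted p 0.00133) and SRF by 0.35 (SE 0.06, limma adjusted p 0.00724). JUN was at 64.9 TPM in A8ko and 26.4 in A2ko, against 22.4 to 27.0 in Control. In A2ko, ATF3 at 10.8 TPM against 33.8 to 36.4 in Control and KLF6 at 15.2 against 31.0 to 34.8 were the 2 genes counted, both lower, where 1.53% of all genes were counted lower. The part of these genes in the values of CCN1 and CCN2 was not tested.

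Of the other CCN genes, CCN6 rose in C9ko by 0.42 (SE 0.09, limma adjusted p 0.0130). It was at 13.8, 12.4 and 14.0 TPM in Control and 17.3 and 19.4 in C9ko, with A2ko above Control at 17.1 and A8ko within its range at 12.9. CCN3 was at 4.61 to 10.4 TPM without a call, and CCN4 and CCN5 were under 1 TPM in every library.

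Neighbours on the chromosome were read for each of the 10 genes. For tested genes whose start lay within 2 Mb of a member's start, the median C9ko difference was between -0.12 (YAP1) and 0.21 (ANKRD1), against 0.11 over all genes. AXL had 73 such neighbours, with medians of -0.01 in C9ko and 0.08 in A8ko. CCN1 had 29, with medians of 0.06 and 0.05, and CCN2 had 16, with a median of 0.00 in A2ko. In C9ko, 22% of all tested genes were called higher and 7.42% lower. Around YAP1 2 of 15 neighbours were called higher and 7 lower, and around ANKRD1 11 of 26 were called higher and 0 lower. TEAD1 had 8 higher and 2 lower of 22, and AMOTL2 4 and 0 of 16. CCN1 had 5 higher and 1 lower of 29, CCN2 3 and 3 of 16, and WWTR1 2 and 2 of 22. AXL had 7 higher and 11 lower of 73, AJUBA 8 and 10 of 84, and LATS2 2 and 4 of 24.

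Annotated genes that overlap a member were low. The highest was ENSG00000259132, a protein-coding gene on the strand of AJUBA, at 1.29 to 5.99 TPM, and WWTR1-AS1, on the other strand from WWTR1, was at 1.01 to 2.31 TPM. The rest were under 1 TPM in every library. The sources used here do not say whether counting was strand-aware, so reads of overlapping genes may be shared.

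The libraries carried the markers of squamous epithelium, with lower levels of several in the knockouts. The summed TPM of 8 keratinocyte markers was 14387 to 15457 in Control, 6039 in A2ko, 6653 in A8ko, and 8697 to 8949 in C9ko. KRT5 and KRT14 made up most of this sum, and other markers differed in direction. In C9ko 3 of the 8 lay above the Control range (CDH1, TP63 and EPCAM) and 3 below, against 41% and 16.4% of all tested genes. After scaling by the median of ratios CDH1 stayed above, TP63 and EPCAM overlapped the range, and PERP lay below it with KRT5, KRT14 and DSG3. The shares of all tested genes were then 29.2% above and 26.7% below. KRT17 was at 1749 TPM in A2ko, above the 1031 to 1243 of Control, and at 489.4 in A8ko, below it. In C9ko 1 of the 8 rose (CDH1, at 0.74, limma adjusted p 0.000249) and 3 fell, KRT14 (-1.61, limma adjusted p 8.16e-05), DSG3 (-1.05, limma adjusted p 0.000188) and KRT5 (-0.74, limma adjusted p 0.00119), beside 22% and 7.42% of all tested genes. Of other cell types, COL3A1 was listed at 0 in every library, and DCN, PTPRC and PECAM1 were at most 0.295 TPM. Summed fibroblast markers were 10.8 to 12.2 TPM in Control, 17.7 in A2ko, 7.36 in A8ko, and within the Control range in C9ko. In C9ko COL1A1 rose by 0.35 (limma adjusted p 0.0323) and LUM fell by 1.11 (limma adjusted p 0.00128). CD14 rose in C9ko by 1.66 (limma adjusted p 8.38e-05), from 14.2 to 17.9 TPM in Control to 52.5 and 50.8, and CDH5 rose by 2.51 (limma adjusted p 8.35e-05), from 3.21 to 4.27 TPM to 21.9 and 29.9. Their part in the values of the 10 genes was not tested.

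Genes with the most similar pattern were sought over the 7 libraries, as a description, among 10967 tested genes with a mean of at least 5 TPM. By Pearson's r of log2(TPM + 1) they were LAMA3 (0.999), OXCT1 (0.997) and EPB41L2 (0.997) for YAP1, and included WDR62 (0.996) and DUSP5 (0.995) for CCN1. For CCN2 they were PPID (0.995), MYEOV (0.992) and IL20RB (0.992). With so few libraries in 4 groups such values are common: r was at least 0.9 for 938 genes with YAP1, 694 with CCN1 and 186 with CCN2.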

How the data were processed

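The deposited values are TPM per Ensembl gene, computed by the authors. The submitters' processing notes name hg38, and the aligner, the quantification tool, the annotation and the use of strand are not given in the sources used here. RNA was polyA-selected and libraries were made from 2 ug of total RNA by the dUTP method, per the labels' protocols. Identical files were counted once. Of 78894 identifiers, 61463 had a symbol in the lookup table used. Positions came from GENCODE release 29 on GRCh38 and promoter windows from RefSeq on GRCh38.p14.

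Values were analysed as log2(TPM + 1) for genes with at least 1 TPM in at least 2 distinct libraries. The C9ko comparison used limma 3.58.1 (R 4.3.3), with all 4 groups in one model, eBayes with trend and two-sided tests. For all knockouts, the 3 knockout group means were compared with the 3 Control libraries. P-values were adjusted by Benjamini-Hochberg over the 17100 genes and called under 0.05. A2ko and A8ko were described by values outside the Control range and 1 log2 unit or more away from its mean. Fits were tested on simulated data.

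The 10 genes, the gene lists and the tests were chosen with earlier results of these data known. All 10 genes are named, and from each other list the up to 3 genes per direction with the largest difference among those called in C9ko, any called in all knockouts, and up to 2 per direction in A2ko and A8ko. Other genes named were chosen after their values were seen. They were LATS1, TYRO3, TEAD2, RBMS3, CCN3 to CCN5, GADD45A in A2ko, single markers, overlapping genes and those with opposite directions. One gene of similar pattern to CCN1 is not reported here. Alternatives varied the pseudocount, the filter, the scaling, the trend, the samples fitted and a replicate block.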

Additional observations from a re-analysis of the deposited data

Results flagged for a closer look

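In 16 of 62 tested pathway, target and early response genes (25.8%), knockouts lay on opposite sides of every Control library, both as deposited and with libraries scaled by the median of ratios, with at least 1 log2 unit between the highest and the lowest knockout. The same held for 8.65% of all 17100 tested genes, and for 6.63% of those with a mean of at least 5 TPM. Whether knockouts differ was not tested here, because 2 of the 3 groups hold a single distinct library. In 8 of them A2ko was below Control while A8ko and C9ko were above. For the targets the gap was 2.17 in NT5E, 1.97 in NUAK2, 1.70 in CCN1, 1.55 in F3 and 1.38 in FJX1, and for the early response genes it was 1.94 in ATF3, 1.66 in KLF6 and 1.21 in SRF.

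CCN2 was below Control in A2ko and C9ko and above it in A8ko, with a gap of 2.06, although the A8ko value was only 0.14 above the Control mean. IER3 had the same order, with a gap of 1.25. FOS (3.19) and DUSP1 (1.56) were above Control in A2ko and below it in A8ko and C9ko. VGLL1 (2.59) and AMOT (1.64) were below Control in A2ko and A8ko and above it in C9ko, and AMOT was listed at 0 in A2ko. TEAD2 (1.12) was below Control in A8ko only and above it in the other knockouts. CCDC80 (1.63) was above Control in A2ko and below it in A8ko.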

How the results depend on the processing

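For C9ko, TEAD1, CCN1, ANKRD1 and AXL were called as higher in all alternatives run (14, or 13 for ANKRD1), and YAP1, AMOTL2 and LATS2 in 13 of 14. Between 6 and 8 of the 10 genes were called when any 1 Control or C9ko library was left out, where a group with 1 library left is assumed to vary like the others. The call of AMOTL2 was lost with no filter on low values (adjusted p 0.0590), and WWTR1 passed only with all 9 files as separate libraries (0.0169). That last setting counts identical files as replicates with no spread between them. It is among the 14, and a call under it adds no support. ANKRD1 lacked the setting with a mean of at least 5 TPM, which it did not reach. Over all genes the C9ko count of 5038 became 8166 with all 9 files, and 3301 to 4174 when 1 of those libraries was left out. The labels give groups the same replicate numbers, and deviations of same-numbered Control and C9ko libraries correlated at -0.0529 and -0.0124. The deviations of the C9ko libraries mirror each other, so these values cannot show whether same-numbered libraries were handled together. With a replicate block 3246 genes and 6 of the 10 were called, YAP1 (adjusted p 0.0770) and AJUBA (0.151) being lost. No paired analysis was possible for the other comparisons because group means and single libraries carry no pairs.

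For all knockouts the 176 genes became 23 with no filter, 4361 when knockouts were averaged inside the model of all groups (7 of the 10 genes), 5 to 11 without 1 Control library, and 67 to 1993 without 1 knockout group. Without A2ko, 3 of the 10 genes were called, and 0 without A8ko, C9ko or any 1 Control library. The WWTR1 difference turned to -0.01 after scaling. Counts of A2ko (867) and A8ko (809) became 1813 and 1689 with a pseudocount of 0.1, and 380 and 412 with a mean of at least 5 TPM. After scaling by the median of ratios, all knockout libraries were above Control for 1454 genes in place of 2911 and below for 1638 in place of 788, and above for 2 of the 10 in place of 5. Calls in C9ko were higher in 74.8% on the deposited scale and 56.3% after scaling. Counts of the gene lists under another scaling were added after the data were seen. Depth is unknown, so no counting error can be given.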
